A study of Mus musculus with 10 samples.

Results

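The transcripts of 40 genes that act in late G2 phase and in mitosis were examined in primary cultures of mouse tongue epithelium. The genes were chosen by symbol, for their known roles, with earlier results of these data known. All 40 were among the 18586 rows of the deposited expression table, and all 40 were among the 11630 genes that were tested because they reached at least 1 TPM in at least 4 libraries. TPM, the authors' measure of transcript abundance, is divided by transcript length and scaled to a common sum within each library, so that levels of different genes can be set side by side. The study asked how an active form of the transcriptional co-activator YAP, together with the HPV16 oncoproteins E6 and E7, changes oral epithelial progenitor cells. E7 inactivates the retinoblastoma protein and E6 directs the destruction of p53.

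All 10 libraries were from mice with a Krt14-CreERT driver, LSL-rtTA and the tetON_H2B-GFP reporter, so that the transgenes were switched on in keratin 14-positive basal epithelial cells. The 6 EY libraries also carried tetON_E6-E7 and tetON_YAP1S127A, a YAP1 mutant that escapes inhibitory phosphorylation, while the 4 N libraries carried neither. Tamoxifen was injected into the tongue and doxycycline was given in the diet. Epithelial cells were isolated 15 days after induction, sorted for GFP and grown with EGF and doxycycline on collagen, before poly(A) RNA was sequenced. The EY libraries came from the culture lines EY3960 (replicates 1 and 4), EY4028 (replicates 2 and 5) and EY4174 (replicates 3 and 6). The 4 N libraries were all from the line N4172. Genotype and N line therefore cannot be told apart, libraries of 1 line are not shown to be separate animals, and p-values measure only the spread between these libraries. Values of a gene are given below in the order of the replicates.

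Cells enter mitosis when cyclin B bound to the kinase CDK1 is activated by CDC25 phosphatases. Aurora and Polo kinases then build the spindle, the spindle checkpoint holds the anaphase promoting complex back until every kinetochore is attached, and the removal of securin frees separase to part the sister chromatids. Most of these genes are silent in resting cells and are transcribed together in G2, through MuvB complexes with B-MYB and FOXM1 that act at a CHR (cell cycle genes homology region) element, often beside CCAAT boxes bound by NF-Y. In stratified epithelia such as the tongue, division is normally confined to basal and parabasal cells.

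The start regions of several members are shown because most members, though not all, share these short elements. Promoter sequences from RefSeq (build GRCm38.p6, 250 bases before to 50 after the start of transcription) were found for 33 of the 40 genes. The letters TTTGAA on either strand, the usual CHR, were in 24 of the 33 (72.7%), against 20.2% of 27025 mouse genes with such a window. The variant TTTAAA was in 9 (27.3%), against 14.9%. CCAAT on either strand was in 25 (75.8%), against 41.1% of all genes. A CHR in either spelling together with CCAAT was in 23 (69.7%), against 12.2% of all genes. These matches describe letters in a fixed window and are not bound sites. The 100 bases before the start follow, 5′ to 3′ on the strand of the gene, with each match of the 3 strings, on either strand, in capitals. They are given for Ccnb1 and Kif11, which had the smallest adjusted p between EY and N, for Aurka, Pttg1 and Cenpa, which differed most clearly among EY lines, and for Cdk1, Ube2c and Top2a, which were among the most abundant. Birc5, more abundant than Top2a, is not printed. Its window held no TTTGAA and no CCAAT, and TTTAAA only at position -220, outside these 100 bases.
Ccnb1 (chr13:100786487-100786586, minus strand): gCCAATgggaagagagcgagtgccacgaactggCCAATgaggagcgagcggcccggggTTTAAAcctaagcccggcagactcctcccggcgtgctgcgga
Kif11 (chr19:37376282-37376381, plus strand): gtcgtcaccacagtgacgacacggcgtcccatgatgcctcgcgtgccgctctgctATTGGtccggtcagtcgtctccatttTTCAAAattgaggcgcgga
Aurka (chr2:172370571-172370670, minus strand): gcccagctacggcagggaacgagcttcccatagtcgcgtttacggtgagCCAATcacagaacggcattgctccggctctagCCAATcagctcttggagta
Pttg1 (chr11:43425982-43426081, minus strand): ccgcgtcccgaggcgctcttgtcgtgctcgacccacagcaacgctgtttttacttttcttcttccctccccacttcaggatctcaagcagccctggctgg
Cenpa (chr5:30666786-30666885, plus strand): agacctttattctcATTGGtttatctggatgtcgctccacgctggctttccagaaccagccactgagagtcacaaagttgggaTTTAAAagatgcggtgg
Cdk1 (chr10:69352913-69353012, minus strand): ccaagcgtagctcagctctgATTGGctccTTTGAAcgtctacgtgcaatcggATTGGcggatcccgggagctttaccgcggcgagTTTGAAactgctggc
Ube2c (chr2:164769829-164769928, plus strand): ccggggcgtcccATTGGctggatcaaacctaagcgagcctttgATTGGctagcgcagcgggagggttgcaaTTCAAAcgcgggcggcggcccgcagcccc
Top2a (chr11:99024190-99024289, minus strand): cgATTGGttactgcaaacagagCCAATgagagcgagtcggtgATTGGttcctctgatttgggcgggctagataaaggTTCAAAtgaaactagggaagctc
Ccnb1, Kif11, Cenpa, Cdk1, Ube2c and Top2a held both kinds of element in these 100 bases. Aurka held a pair of CCAAT boxes there, and its CHR matches in both spellings lay after the start. Pttg1 held none of the 3 strings in its whole 300-base window, as did Mad2l1, Nuf2 and Nusap1.

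The libraries were first checked against their labels. Yap1 stood at 34.7 to 57.1 TPM in EY and at 17.2 to 20.9 TPM in N, without overlap. The basal keratinocyte markers Krt14 and Krt5 had mean levels of 3325 and 1895 TPM over all libraries. Trp63, another basal marker, was lower in EY, at 46.0 to 60.5 TPM against 70.8 to 99.9 TPM in N. It was the only 1 of 6 basal markers with an adjusted p under 0.01 by limma, and 4 of the 6 had a difference below 0. Summed markers of fibroblasts, endothelium, skeletal muscle and melanocytes did not pass 3.44 TPM in any library, and the pan-leukocyte gene Ptprc did not pass 0.347 TPM. These sums cover only markers with a row in the table. Such rows existed for 2 of 6 fibroblast, 3 of 4 endothelial, 2 of 4 skeletal muscle, 4 of 4 melanocyte and 4 of 6 immune markers. Of the 6 immune markers, Cd68 alone was measured above 1 TPM in enough libraries to be tested, at 29.3 to 71.8 TPM. The read depth behind the TPM is unknown.

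The program was strongly expressed in both genotypes. No member was under 3 TPM in any library, and 38 of 40 lay above the median level of all genes tested. Cdk1 was the most abundant, with a mean of 422 TPM over the 10 libraries, followed by Ube2c at 376, Ccnb1 at 205, Birc5 at 201 and Top2a at 193 TPM. Espl1, which encodes separase, was the least abundant at 5.93 TPM, and the transcription factor gene Foxm1 had 11.5 TPM. Summed over the 40 genes, the 6 EY libraries averaged 2986 ± 94.3 TPM (SD) and the 4 N libraries 3296 ± 277 TPM (SD). N replicate 4, at 2917 TPM, lay within the EY range of 2864 to 3115 TPM, whereas the other N libraries had 3399, 3297 and 3570 TPM. Without N replicate 4 the N mean was 3422 ± 138 TPM (SD, n = 3). Summed TPM of 30 genes of G1/S and DNA replication ranged from 1946 to 2012 TPM in EY and from 1847 to 2061 TPM in N. In bulk RNA, fewer cells in G2 or mitosis and less transcript per such cell cannot be told apart.

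**Figure D1:**
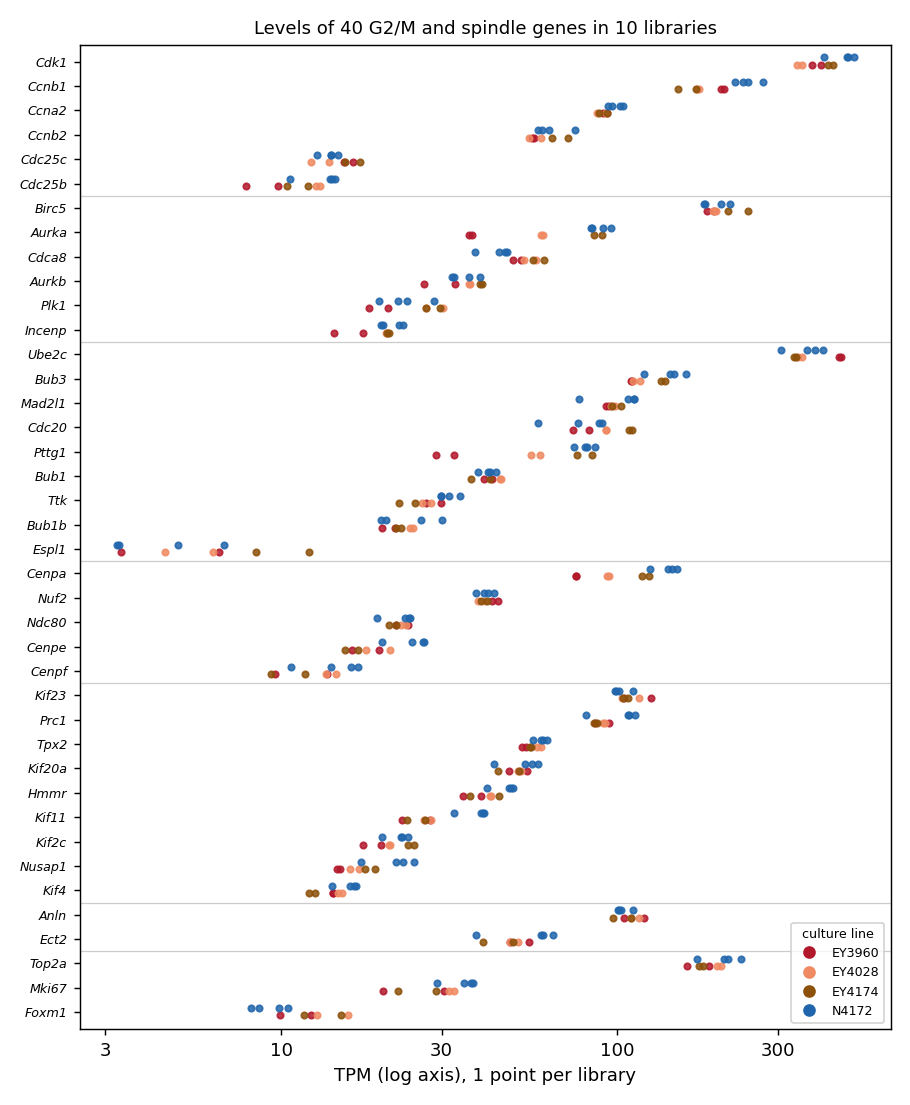
TPM of each of the 40 genes (rows, grouped by role and ordered by mean level within a role) in each of the 10 libraries, on a log axis, coloured by culture line. Levels span from Espl1, at 3.24 TPM in its lowest library, to Cdk1, at 504 TPM in its highest, and for most genes the EY and N points lie close together.

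**Figure D2:**
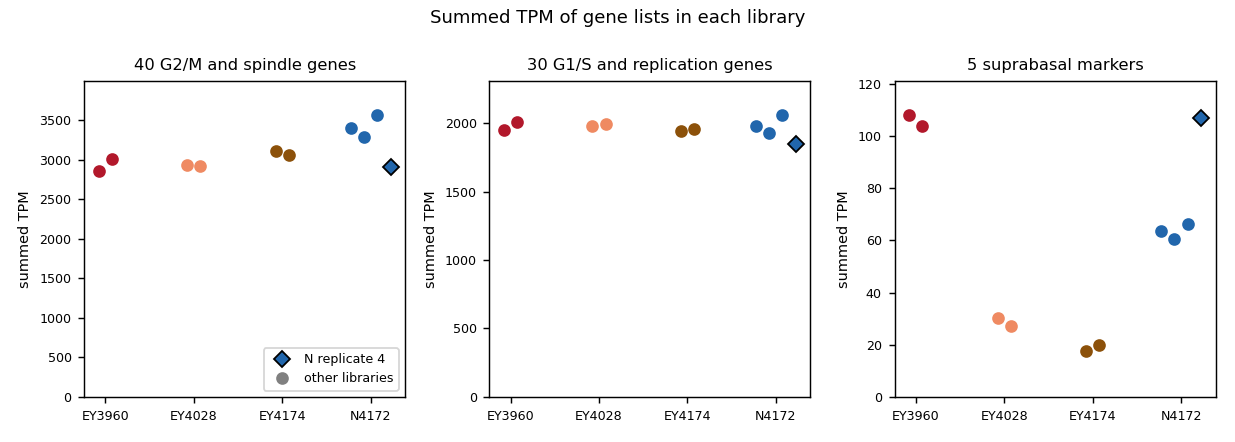
Summed TPM in each library, by culture line, of the 40 G2/M and spindle genes (left), of 30 G1/S and replication genes (middle) and of the 5 suprabasal markers present in the table (right). N replicate 4, drawn as a diamond, has 2917 TPM for the 40 genes and 107 TPM for the suprabasal markers, where the other N libraries have 60.4 to 66.4 TPM.

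N replicate 4 stood apart from the other N libraries in this program. It was the lowest of the 4 N libraries for 28 of the 40 genes, against 36.6% of all genes tested. N replicate 3 was the lowest for 1 of the 40, against 9.41%. The suprabasal markers (Krt13, Krt4, Krt10, Lor and Ivl) summed to 107 TPM in N replicate 4 and to 63.5, 60.4 and 66.4 TPM in N replicates 1 to 3. The highest value of any 1 of them in any library was 88.6 TPM, so a sum of this size can rest mostly on 1 gene. Cd68 stood at 68.7 TPM in N replicate 4 and at 45.9, 42.1 and 47.6 TPM in the others. The part of these markers in its lower mitotic transcripts was not tested. Without this library the difference between EY and N moved by more than 1.5 times or changed sign for 17 of the 40 genes, all of them without a passing adjusted p when every library was used. For these genes the value without N replicate 4 is given beside the value with it. Because N replicate 4 is low for most of the 40 genes, leaving it out lowers EY relative to N by construction. N replicate 3 was the highest of the N libraries for 27 of the 40, and leaving that library out acts the other way.

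None of the 40 genes was called between EY and N by limma at the study's thresholds, an adjusted p under 0.01 with a difference beyond 1 on the log2(TPM + 1) scale, that is, above 2-fold. Of all genes tested, 3.55% were called. At an unadjusted p under 0.05, 13 of the 40 were counted, 11 lower in EY against 16.3% of all genes and 2 higher against 21.2%. At an adjusted p under 0.01 regardless of size, 2 members were lower, Ccnb1 and Kif11, against 5.004% of all genes, and 0 were higher, against 6.84%. The difference was below 0 for 28 of 40 members, against 46.0% of all genes, and its median was -0.11 over the members and 0.029 over all genes. The 95% interval lay within 2-fold in both directions for 37 members, the exceptions being Aurka, Pttg1 and Espl1. EY and N libraries did not overlap for 4 members that were lower in EY (Ccna2, Ccnb1, Cenpa and Kif11), against 9.10% of all genes, and for 1 that was higher (Cdca8), against 11.3%. Without N replicate 4, 0 of 40 were again called, against 3.70% of all genes, and 31 were below 0, with a median of -0.17. Ccnb1, Cenpe, Kif11, Nusap1 and Prc1 then had an adjusted p under 0.01 and were lower, against 5.12% of all genes, while 0 were higher, against 7.49%. The library left out was the lowest of N for most members, so these values are no separate support for a decrease. Without N replicate 3 instead, the difference was -0.38 for Ccnb1 and -0.30 for Nusap1, against -0.44 and -0.37 with all libraries.

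**Figure D3:**
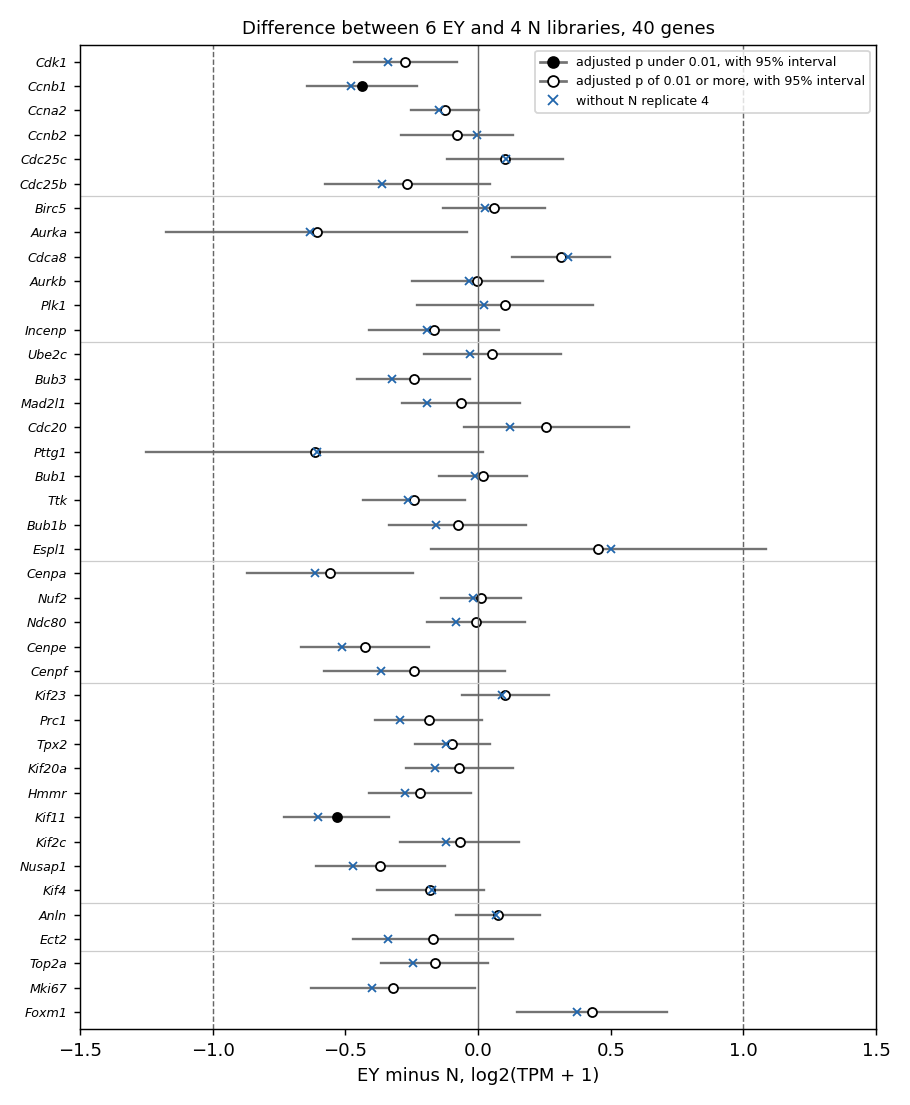
Difference between 6 EY and 4 N libraries in log2(TPM + 1) for each gene, with its 95% interval from limma, in the row order of the plot of levels. Filled circles mark an adjusted p under 0.01 (Ccnb1 at -0.44 and Kif11 at -0.53), crosses give the difference without N replicate 4, and dashed lines mark 2-fold, which no circle reaches.

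Among the cyclins, CDK1 and the CDC25 phosphatases, 5 of 6 genes had a difference below 0, with a median of -0.19. Ccnb1, cyclin B1, the partner that carries CDK1 into mitosis, is given because its adjusted p was small. It stood at 207 and 204 TPM in EY3960, 175 and 172 in EY4028, 171 and 151 in EY4174, and 244, 236, 271 and 223 in N. Every EY library was below every N library. EY and N averaged 180.1 ± 21.5 TPM (SD, n = 6) and 243 ± 20.3 TPM (SD, n = 4), a log2 difference of -0.44 ± 0.10 (SE) with an adjusted p of 0.00652. The adjusted p rose above 0.01 without EY replicate 2, 3 or 5 or N replicate 1, 2 or 3, to 0.0286 at most, and was 0.0957 when the culture line was taken as a random block. Cdk1 itself, the mitotic kinase, was measured at 379 and 404 TPM in EY3960, 341 and 353 in EY4028, 439 and 424 in EY4174, and 483, 486, 504 and 412 in N. All but N replicate 4 of the N libraries were above all EY libraries, and N replicate 4 lay between EY3960 and EY4174. The difference of -0.27 ± 0.089 did not pass the test (adjusted p = 0.0419).

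Ccna2, cyclin A2, which acts in S phase and G2, had narrow values of 87.0 to 93.0 TPM in EY and 93.9 to 104 TPM in N. The groups did not overlap, but the difference was small at -0.12 ± 0.059 (adjusted p = 0.148). Ccnb2, the second B-type cyclin, differed by -0.080, and by -0.0029 without N replicate 4, and Cdc25b, a phosphatase that starts CDK1 activation, by -0.27. Cdc25c, its relative that acts at mitotic entry, differed by 0.10. None of these genes passed the test, and for Ccnb2, Cdc25b and Cdc25c the ranges of EY and N overlapped.

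The mitotic kinases and the chromosomal passenger complex were divided in direction, with 3 of 6 genes below 0 and a median of 0.028. Birc5, survivin, which targets the passenger complex to centromeres, was the most abundant of them, at 194 and 185 TPM in EY3960, 196 and 193 in EY4028, 213 and 245 in EY4174, and 203, 181, 215 and 182 in N. The libraries of the groups overlapped. The difference was 0.060 ± 0.088 (adjusted p = 0.661; 95% interval -0.13 to 0.25), and 0.028 without N replicate 4. The remaining subunits of the complex had differences of either sign. Cdca8, borealin, had 48.9 to 60.3 TPM in EY and 37.7 to 46.8 TPM in N, without overlap, and a difference of 0.31 ± 0.085 that missed the threshold (adjusted p = 0.0199). Incenp, the scaffold, differed by -0.17, and Aurkb, the catalytic subunit, by -0.0034, or -0.035 without N replicate 4. Plk1, the Polo kinase of mitotic entry and spindle assembly, differed by 0.10, with 18.2 to 30.2 TPM in EY and 19.5 to 28.5 TPM in N, and by 0.021 without N replicate 4.

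Aurka, Aurora A, the kinase of centrosome maturation and spindle poles, behaved otherwise. It was measured at 36.1 and 36.9 TPM in EY3960, 59.1 and 60.1 in EY4028, 84.98 and 90.05 in EY4174, and 90.4, 84.00, 95.9 and 83.3 in N. The libraries of each line lay within 6 TPM of each other in EY, EY3960 was below EY4028, EY4028 was below N, and EY4174 lay within the N range. Averaged over the EY lines, the difference of -0.61 ± 0.26 did not pass the test (adjusted p = 0.1096). Taken by line, Aurka fell in EY3960, with a difference of -1.25 ± 0.079 on the log2 scale (adjusted p = 1.04e-06).

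Of the 9 genes of the spindle checkpoint and of anaphase, 5 had a difference below 0, with a median of -0.065. Ube2c, the ubiquitin-conjugating enzyme of the anaphase promoting complex, had 462 and 456 TPM in EY3960, 354 and 345 in EY4028, 336 and 340.1 in EY4174, and 386, 365, 409 and 307 in N. EY3960 was above every other library, and the other EY lines lay within the range of N. The difference of 0.053 ± 0.12 did not pass (adjusted p = 0.7798), and its sign was negative without N replicate 4, at -0.030. Cdc20, the activator of the same complex, was at 73.8 and 82.1 TPM in EY3960, 92.2 and 92.4 in EY4028, 108 and 111 in EY4174, and 88.4, 76.5, 90.1 and 57.9 in N. Its 4 libraries of EY4028 and EY4174 were above all N libraries, and N replicate 4 was the lowest of all. The difference was 0.26 ± 0.14 and did not pass (adjusted p = 0.213), and it was 0.12 without N replicate 4 (adjusted p = 0.516). Cdc20 shares exonic bases with Elovl1 on the opposite strand, and Ube2c with Tnnc2, and whether counting used the strand is not given in the sources used here.

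Pttg1, securin, the inhibitor of separase, had the same pattern over lines as Aurka, with 32.7 and 28.8 TPM in EY3960, 55.4 and 58.8 in EY4028, 75.99 and 84.1 in EY4174, and 79.9, 85.5, 74.4 and 81.4 in N. EY3960 was lowest, EY4028 lay between it and N, and EY4174 lay within the N range. The difference over all EY libraries was -0.61 ± 0.29 (adjusted p = 0.145). In EY3960, Pttg1 fell, with a difference of -1.36 ± 0.088 on the log2 scale (adjusted p = 1.29e-06). Its target Espl1, separase, had 6.53 and 3.34 TPM in EY3960, 6.25 and 4.504 in EY4028, 12.1 and 8.41 in EY4174, and 3.24, 3.301, 6.77 and 4.92 in N. The libraries of 1 line differed from each other more for Espl1 than for any other member, with a within-line SD of 0.41 on the log2 scale against a median of 0.12 over the members. The difference of 0.45 ± 0.29 did not pass (adjusted p = 0.2803).

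None of the checkpoint genes proper passed the test. Bub1, the kinase that recruits checkpoint proteins to kinetochores, differed by 0.019, Bub1b (BUBR1) by -0.076 and Mad2l1 (MAD2), both inhibitors of CDC20, by -0.065. Mad2l1 had 92.7 to 102 TPM in EY and 112, 108, 112 and 77.0 TPM in N, so that N replicate 4 was below all EY libraries and the other N libraries above all. Without N replicate 4 the differences were -0.012 for Bub1, -0.16 for Bub1b and -0.19 for Mad2l1 (adjusted p = 0.925, 0.351 and 0.0292). Bub3 differed by -0.24 and Ttk (MPS1), the kinase at the head of the checkpoint, by -0.24, and neither passed (adjusted p = 0.0925 and 0.0645).

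Among kinetochore and centromere genes, 4 of 5 were below 0 and the median was -0.24. Cenpa, the histone H3 variant that marks centromeres, was the most abundant and was measured at 75.4 and 75.1 TPM in EY3960, 94.2 and 93.1 in EY4028, 119 and 124 in EY4174, and 150.2, 142, 146 and 125 in N. Every EY library was below every N library, EY3960 was lowest and EY4174 came close to N replicate 4, the lowest of N. EY and N averaged 96.7 ± 20.8 TPM (SD, n = 6) and 141 ± 11.1 TPM (SD, n = 4), a difference of -0.56 ± 0.14 that missed the threshold (adjusted p = 0.0149). Cenpe, the kinetochore motor that moves chromosomes to the spindle equator, had 15.5 to 21.1 TPM in EY and 24.5, 26.5, 26.4 and 19.9 TPM in N. Its difference was -0.42 ± 0.11 with all libraries (adjusted p = 0.0161) and -0.51 without N replicate 4 (adjusted p = 0.00526). Cenpf, a large protein of the outer kinetochore, differed by -0.24. Ndc80 and Nuf2, partners in the complex that grips microtubules, differed by -0.0088 and 0.012, with 95% intervals of -0.19 to 0.18 and -0.14 to 0.16. Without N replicate 4, Cenpf differed by -0.37, Ndc80 by -0.082 and Nuf2 by -0.018, and none of the 3 passed.

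Of the 9 spindle motors and microtubule-binding proteins, 8 were below 0, with a median of -0.18. Kif11, the kinesin-5 motor that pushes spindle poles apart, had 22.8 and 27.7 TPM in EY3960, 26.6 and 27.98 in EY4028, 26.7 and 23.7 in EY4174, and 39.9, 40.04, 39.4 and 32.6 in N. Every EY library was below every N library, and the 3 EY lines had nearly equal means. EY and N averaged 25.9 ± 2.14 TPM (SD, n = 6) and 37.97 ± 3.62 TPM (SD, n = 4), with a difference of -0.53 ± 0.090 (adjusted p = 0.00147), and -0.60 without N replicate 4 (adjusted p = 6.77e-04). With any 1 library left out the adjusted p stayed at 0.00816 or less, and it was 0.0675 with the culture line as a random block. Kif23, the motor of the centralspindlin complex at the midzone, was the most abundant of these genes, at 104 and 126 TPM in EY3960, 116 and 103 in EY4028, 108 and 104 in EY4174, and 101, 98.05, 111 and 99.2 in N. The groups overlapped and the difference was 0.10 ± 0.075 (adjusted p = 0.343).

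The other members of this group had differences below 0 that did not pass with all libraries. Nusap1, which bundles spindle microtubules, had 14.7 to 19.0 TPM in EY and 22.0, 23.0, 24.8 and 17.3 TPM in N. Its difference was -0.37 (adjusted p = 0.0317) with and -0.47 without N replicate 4 (adjusted p = 0.00653). Prc1, which crosslinks microtubules at the midzone, had 85.4 to 94.4 TPM in EY and 108, 113, 108 and 80.6 TPM in N. Its difference was -0.19 (adjusted p = 0.161) with and -0.30 without N replicate 4 (adjusted p = 0.00493). For both genes N replicates 1 to 3 were above all EY libraries and N replicate 4 was not. Tpx2, the activator of Aurora A on the spindle, differed by -0.10, and Hmmr, which helps to focus spindle poles, by -0.22. The depolymerase Kif2c differed by -0.069, the chromokinesin Kif4 by -0.18, and Kif20a, which acts at the midzone, by -0.070. Without N replicate 4, Kif2c differed by -0.12 and Kif20a by -0.16, and neither passed (adjusted p = 0.4400 and 0.141).

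The cytokinesis genes and the remaining members gave no passing difference either. Anln, anillin, the scaffold of the contractile ring, had 104 and 120.1 TPM in EY3960, 109 and 116 in EY4028, 110.0 and 97.1 in EY4174, and 100.2, 101, 111 and 102 in N, with a difference of 0.075 ± 0.072 (adjusted p = 0.484). Ect2, the exchange factor that activates RhoA for furrowing, differed by -0.17 (adjusted p = 0.406), and by -0.34 without N replicate 4 (adjusted p = 0.0239). Top2a, the topoisomerase that untangles sister chromatids, had 161 and 187 TPM in EY3960, 203 and 197 in EY4028, 179 and 175 in EY4174, and 208, 213, 232 and 173 in N. Its groups overlapped, and the difference was -0.16 ± 0.092 (adjusted p = 0.223), or -0.25 without N replicate 4 (adjusted p = 0.0467). Mki67, the gene of the Ki-67 antigen that coats mitotic chromosomes, had 20.1 to 32.6 TPM in EY and 29.0 to 37.1 TPM in N, a difference of -0.32 (adjusted p = 0.1204). Foxm1, the transcription factor of the program, had 9.89 to 15.8 TPM in EY and 8.14 to 10.5 TPM in N. Its difference of 0.43 was on the other side of 0 from most of the genes, and did not pass (adjusted p = 0.0314).

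The lines of EY were compared with N one by one. The 3 comparisons share the N libraries and are not independent of each other. In EY3960, Aurka and Pttg1 were called as lower, 2 of 40 against 3.08% of all genes, and 0 members were called as higher, against 3.96%. At an adjusted p under 0.01 regardless of size, Cenpa (-0.89 ± 0.082) and Kif11 (-0.57 ± 0.12) were also lower, 4 in all against 7.06%, and 0 were higher, against 9.94%. At an unadjusted p under 0.05, 17 of 40 differed in either direction, against 39.8%. In EY4028, 0 members were called in either direction by limma, against 2.18% of all genes lower and 3.56% higher, with 11 of 40 at an unadjusted p under 0.05 against 41.1%. Aurka (-0.56), Cenpa (-0.58), Pttg1 (-0.48), Ccnb1 (-0.48) and Cdk1 (-0.44) had an adjusted p under 0.01 in that line, 5 lower against 5.83% and 0 higher against 10.9%. In EY4174, 0 were called by limma, against 2.94% lower and 2.01% higher, with 12 of 40 at an unadjusted p under 0.05 against 41.4%. Ccnb1 (-0.59) and Kif11 (-0.57) were lower at an adjusted p under 0.01, 2 against 8.26%, and 0 were higher, against 7.32%. Espl1 was beyond 2-fold in that line at 1.04 ± 0.30, without passing the test (adjusted p = 0.0247). Aurka and Pttg1 differed from N by -0.012 and -0.0039 there. The median over the members was -0.17 in EY3960, -0.060 in EY4028 and -0.080 in EY4174, against 0.011, 0.093 and -0.014 over all genes.

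**Figure D4:**
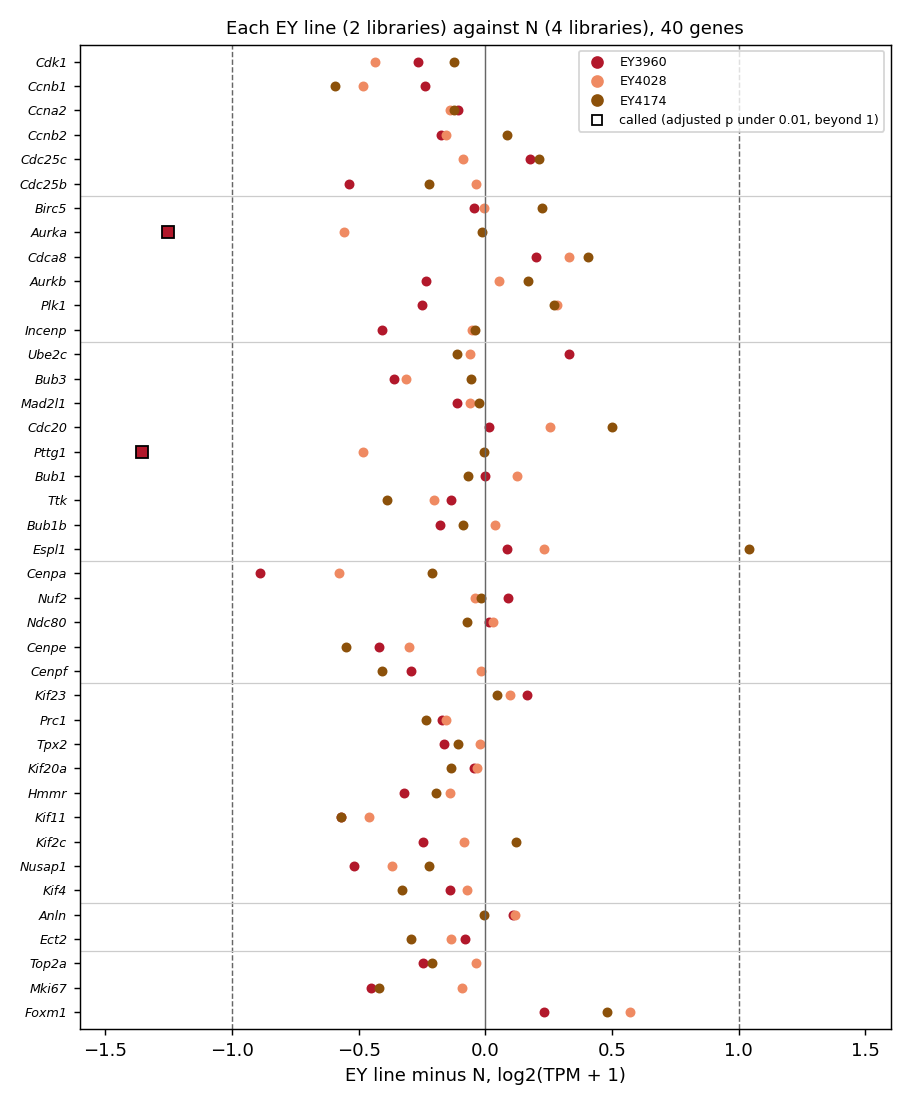
Difference of each EY line (2 libraries) from N (4 libraries) in log2(TPM + 1) for each gene. Squares mark the called values, Aurka at -1.25 and Pttg1 at -1.36 in EY3960, and dashed lines mark 2-fold, which Espl1 in EY4174 also passes without being called.

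Differences among the EY lines themselves were tested next, with the N libraries entering only the estimate of the spread. Aurka and Pttg1 were called, 2 of 40 against 5.12% of all genes, with largest differences between lines of 1.24 and 1.35 on the log2 scale (adjusted p = 1.83e-05 and 1.95e-05, limma's F test). Cenpa differed by up to 0.68 (adjusted p = 0.001799), which made 3 of 40 members at an adjusted p under 0.01 against 8.55%. For all 3 genes the order was EY3960, EY4028, EY4174 from low to high, and that order held for 14 of the 40 members. The share of all genes with this order was not counted, so the 14 cannot be read against it. EY3960 was the lowest of the 4 lines for 19 members, against 25.3% of all genes, and N4172 was the highest for 23, against 26.5%. Along this order the sum of basal markers rose, and the sum of suprabasal markers, which can rest mostly on 1 gene, fell. The 6 basal markers summed to 4221 and 4472 TPM in EY3960, 5700 and 5741 TPM in EY4028 and 6469 and 7166 TPM in EY4174, while the suprabasal markers summed to 108 and 104, 30.2 and 27.2, and 17.7 and 20.1 TPM. Cd68 stood at 68.9 and 71.8, 35.7 and 38.2, and 29.5 and 29.3 TPM in the same lines. In N the basal sum was 5228 to 5929 TPM. Of the basal markers, Krt14 averaged 2542, 3403 and 3938 TPM in EY3960, EY4028 and EY4174, and Krt5 1392, 1911 and 2527 TPM. Most of the basal sum came from Krt14 and Krt5, so its order need not hold for the other basal markers. Trp63, also a basal marker, did not follow the order, at 52.4, 53.4 and 53.3 TPM. The part of these markers in the line differences was not tested. Other members did not follow the order, Ube2c being highest in EY3960 and Ccnb1 lowest in EY4174.

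**Figure D5:**
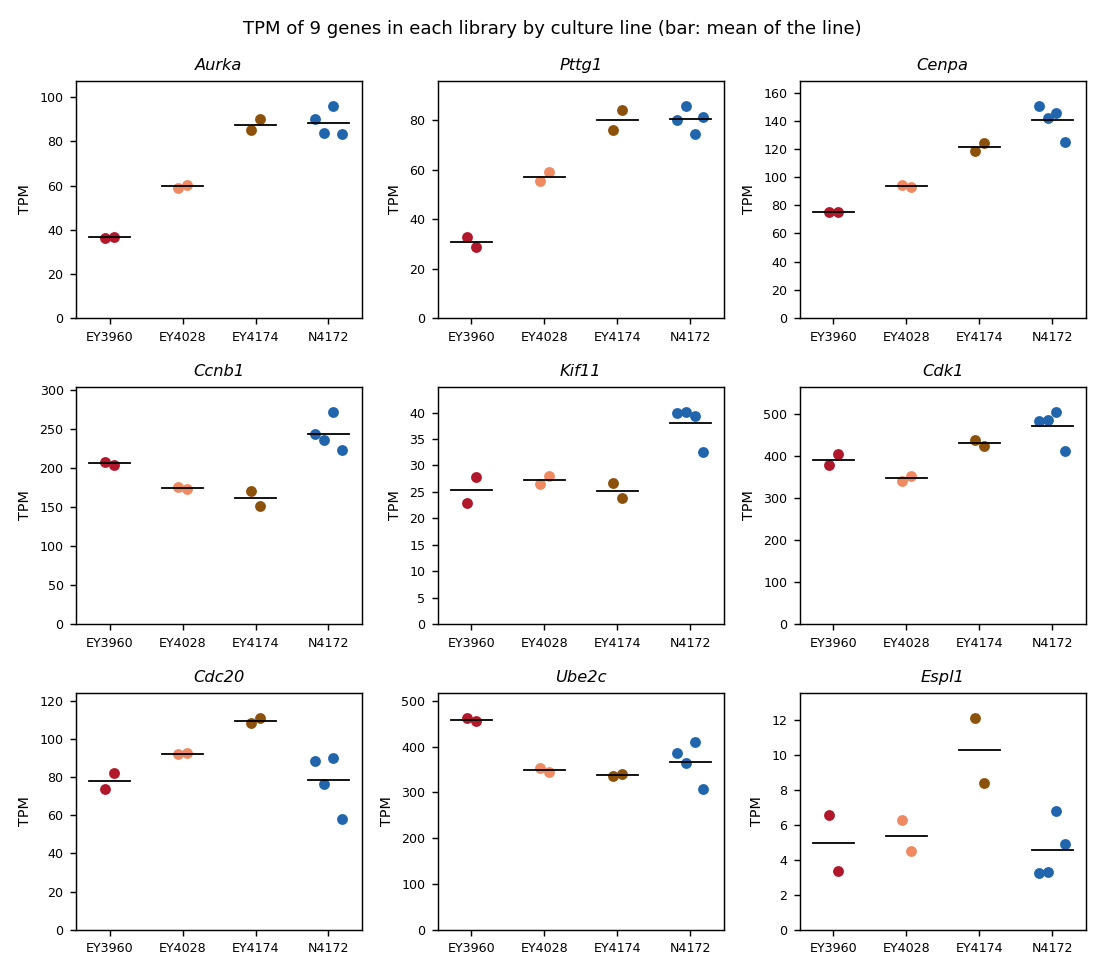
TPM in each library (points) and the mean of each line (bars) for 9 genes. Aurka, Pttg1 and Cenpa step up from EY3960 through EY4028 to EY4174, Kif11 is low in all 3 EY lines, with a highest EY library of 28 TPM against a lowest N library of 32.6 TPM, and Ube2c is highest in EY3960.

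A wider list of 133 other genes of the same processes was set beside the 40. All 133 were tested and 0 were called by limma between EY and N, against 3.55% of all genes, with 52 (39.1%) at an unadjusted p under 0.05, against 37.5%. Their median difference was -0.013, against 0.029 over all genes, and 68 of 133 were below 0, against 46.0% of all genes. In EY3960, 1 was called against N, Kif15 as lower (-1.07 ± 0.12, limma adjusted p = 6.22e-05), against 3.08% of all genes. In EY4028 and EY4174, 0 were called. Between the EY lines, 1 was called, Rbl1, with a largest difference of 1.10 (adjusted p = 0.00191, limma's F test), against 5.12%. At an adjusted p under 0.01, 9 were lower (6.77%, against 5.004% of all genes) and 6 were higher (4.51%, against 6.84%). The named examples were chosen after their values were seen. Of 36 genes of motors, microtubules and cytokinesis, Kif18a, Kif20b and Aspm were lower, and of the kinetochore and centromere genes, Cenpl was among those lower. Of 20 kinases and regulators, Cdca2, Cks2, Mastl and Bora were lower and Melk was higher. Cks2, a small subunit of CDK1 complexes, had a mean of 209 ± 17.4 TPM in EY and 303 ± 25.9 TPM in N, a difference of -0.53 (adjusted p = 8.04e-04). Of 16 subunits of the anaphase promoting complex, Anapc11, Anapc13 and Anapc15 were higher and 0 lower. Anapc13 had a mean of 109 ± 7.74 TPM in EY and 75.7 ± 5.13 TPM in N, a difference of 0.52 (adjusted p = 4.68e-04). Of 14 genes of MuvB, DREAM, B-MYB and NF-Y, Mybl2 and Nfyc were higher. Mybl2, which encodes B-MYB, had 18.3 ± 1.91 TPM in EY and 11.1 ± 0.895 TPM in N, a difference of 0.68 (adjusted p = 5.42e-04). None of 13 condensin and cohesin genes had an adjusted p under 0.01, against 11.8% of all genes, with 2 (15.4%) at an unadjusted p under 0.05, against 37.5%. Of the 30 genes of G1/S and DNA replication, 29 were tested, 0 had an adjusted p under 0.01 and 10 (34.5%) an unadjusted p under 0.05, against 11.8% and 37.5% of all genes, with a median difference of 0.082.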

How the data were processed

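Poly(A) RNA of 6 EY and 4 N libraries was measured by paired-end RNA-seq. The deposited table holds TPM computed by the authors, 1 column per library. The labels' processing notes name STAR 2.7.9, SAMtools 1.7, HTSeq 0.13.5 and GRCm39. The study's methods also describe Kallisto TPM on a human transcriptome with the highest transcript kept per gene, and which step gave the table is not stated, so transcript choice could change levels. The table holds mouse symbols. TPM carry no depth, so no counting interval was given.

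Tests used limma 3.58.1 (R 4.3.3), with its trend and robust settings, on log2(TPM + 1). They covered the 11630 genes that reached 1 TPM in 4 or more libraries, with Benjamini-Hochberg adjustment over all of them. This scale understates changes of low genes. A gene was called at an adjusted p under 0.01 and a log2 difference beyond 1. Lines were compared in a model with 4 line means. The fits were tested on simulated data with planted changes beyond the threshold and no other spread between lines. Such data cannot show how the p-values behave when lines of a group differ.

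The members and gene lists were chosen with earlier results of these data known. Named in full were members called in any comparison and the most abundant of each role, and genes with small adjusted p, non-overlapping groups or the widest spread were added after their values were seen. GENCODE M21 gave 10 members an exon overlap on the opposite strand (Ccna2, Cdc20, Cdc25b, Cdc25c, Cdca8, Kif20a, Kif4, Nusap1, Prc1 and Ube2c), 1 on the same strand (Foxm1) and 3 a pseudogene copy (Ccnb1, Ccnb2 and Kif4). Their levels are uncertain to that extent. 1 other gene of the wider list, beyond those named, is counted but not reported here by name. Alternatives were other pseudocounts, filters, scalings and variance models, left-out libraries and lines, and line or sample number as a block.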

Additional observations from a re-analysis of the deposited data

Results flagged for a closer look

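In 6 of the 80 gene and group combinations that were examined (40 genes in EY and in N), 1 library lay farther from the others than Dixon's 95% limit allows. About 4 would be so by chance. In all 6 it was N replicate 4, as the lowest of the N libraries. The values were 10.6 TPM for Cdc25b, 77.0 TPM for Mad2l1, 19.2 TPM for Ndc80, 32.6 TPM for Kif11, 40.9 TPM for Hmmr and 80.6 TPM for Prc1. The genes belong to 1 program and the flags are not independent of each other. The same library had the highest suprabasal marker sum in N, at 107 TPM, whose part was not tested.

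The EY lines differed among themselves in 2 genes by limma's F test and by more than 2-fold. The largest difference between lines was 1.24 on the log2 scale for Aurka and 1.35 for Pttg1, between EY4174 and EY3960 in both cases.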

How the results depend on the processing

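No member was called between EY and N, and Aurka and Pttg1 were the 2 called in EY3960, under every alternative run, and 2 members were called between the EY lines throughout. The median difference kept its sign, at -0.17 to -0.085 when 1 library was left out. The number of members with an adjusted p under 0.01 between EY and N was less stable than its 2. It was 1 to 5 when 1 library was left out, being 1 without EY replicates 2 or 5 or without N replicates 1, 2 or 3 in turn, where Ccnb1 missed the threshold, and 5 without N replicate 4. It was 1 without line EY4028 and 1 with limma without trend and robust options, and 0 with the line as a random block or with line means. Differences near 0 changed sign. In EY4174, Aurka was 0.023 and Pttg1 0.031 under median scaling, and -0.054 to 0.029 and -0.076 to 0.069 with 1 library left out. Ube2c between EY and N was -0.056 under quantile normalization, -0.085 without line EY3960 and -0.030 to 0.11 with 1 library left out. Birc5 was -0.023 without line EY4174, and Espl1 in EY3960 was -0.31 to 0.48 with 1 library left out. The causes were not tested. Sample numbers did not pair the lines, since the differences between sample 1 and sample 2 correlated at only -0.15 to 0.052 between lines over genes. Under a replicate block on that number, 0 members had an adjusted p under 0.01 between EY and N, Aurka in EY4174 was 0.0058, and 1 member was called in EY4174, Espl1 at 1.38. TPM without read counts leave the precision of low genes such as Espl1 unknown.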
